A study of Mus musculus with 6 samples.

Results

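The CCN genes encode secreted matricellular proteins, which sit in the extracellular matrix and signal to cells rather than bear load. The members described here are Ccn1, Ccn2, Ccn3, Ccn4 and Ccn5, also called Cyr61, Ctgf, Nov, Wisp1 and Wisp2, taken by gene name as 5 of the 48440 genes in the count table. Poly(A) RNA of mouse ovarian surface epithelial cells, the cell layer that covers the ovary, was sequenced 7 days after adenoviral transduction. The cells received Ad-Cre-GFP, with the labelled genotype Lats1/2 knockout (3 libraries), or Ad-GFP, with the labelled genotype WT (3 libraries). All 6 libraries thus came from cells that received an adenovirus and GFP, and the deletion and exposure to Cre cannot be told apart. The strain, the age of the animals, the passage of the cells, the floxed alleles and whether cells of several animals were pooled were not given in the labels used here.

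A CCN protein is built from modules: an insulin-like growth factor binding protein (IGFBP) module, a von Willebrand factor type C module, a thrombospondin type 1 module and, except in CCN5, a C-terminal cystine knot. The modules bind integrins, heparan sulfate proteoglycans, LRP receptors and growth factors, and CCN proteins act in adhesion, migration, wound repair and fibrosis. Ccn1 and Ccn2 are standard target genes of YAP and TAZ, the coactivators that LATS1 and LATS2 phosphorylate and hold back, and that act on DNA through TEAD factors. Ccn4 was named for its induction by WNT1, Ccn5 is known as an estrogen-induced gene in breast cancer cells, and CCN3 has been described as opposing CCN2 in models of fibrosis.

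The 5 genes lie on 4 chromosomes of build GRCm38. Ccn1 lies on chromosome 3 (145646976 to 145649981, minus strand), Ccn2 on chromosome 10 (24595442 to 24598683), Ccn5 on chromosome 2 (163820861 to 163833146), and Ccn3 (54745702 to 54754039) and Ccn4 (66891320 to 66923201) on chromosome 15, the last 4 on the plus strand. In GENCODE M21 the longest coding sequence held 379 codons in Ccn1, 348 in Ccn2, 354 in Ccn3 and 367 in Ccn4. That of Ccn5, which lacks the cystine knot module, held 251 codons.

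The promoter of Ccn1 is shown as that of the 1 member of 5 that matched an entry of the promoter table, and motifs of TEAD and other factors were sought in it. It spans chr3:145649936-145650235 (GRCm38.p6, minus strand, RefSeq), from 250 bases before to 50 bases after the annotated start, written 5′ to 3′. Capitals mark the matches to GGAATG (TEAD, here on the opposite strand and so read as CATTCC) and to TATAAA, the TATA box.
Ccn1 promoter: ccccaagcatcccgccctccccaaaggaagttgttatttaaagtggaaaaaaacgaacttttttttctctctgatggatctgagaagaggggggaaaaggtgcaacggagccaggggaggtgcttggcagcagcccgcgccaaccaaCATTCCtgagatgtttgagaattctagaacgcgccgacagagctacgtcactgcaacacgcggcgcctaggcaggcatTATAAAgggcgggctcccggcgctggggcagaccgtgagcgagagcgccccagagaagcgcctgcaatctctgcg
The TEAD match lay 103 to 98 bases before the start, and the TATA match 25 to 20 bases before it. Of 32851 RefSeq promoter windows of 300 bases, 14.7% held GGAATG on either strand and 13.6% held TATAAA, so such matches are common. The window also held CAGAC, the SMAD motif, at bases 4 to 8 after the start, as did 49.6% of all windows on either strand. TGANTCA (AP-1, in 7.81% of windows), CTTTGNT (TCF/LEF, in 18.6%) and the CArG box of SRF (in 1.63%) were not found in these letters. None of the motif matches overlapped another. The GC content of the window was 57%, against a median of 52.7% over all windows.

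Depth and quality were as follows. The Ad-Cre-GFP libraries held 27734527 to 30304033 counts and the Ad-GFP libraries 18690235 to 25363462. Lats1 averaged 37.0 ± 1.36 CPM in Ad-Cre-GFP and 159 ± 8.73 CPM in Ad-GFP libraries, and Lats2 averaged 98.6 ± 1.97 CPM in Ad-Cre-GFP and 129 ± 2.16 CPM in Ad-GFP libraries (SD, n = 3 each; CPM are counts scaled to 1e+06 on TMM-scaled library sizes), with no overlap for either gene. The groups also did not overlap for 73.0% of all genes tested. Whole-gene counts do not measure deletion of exons. On the second principal component, with 3.15% of the variance, Ad-GFP replicate 3 scored -18.7 and the remaining control libraries 8.85 and 11.1. Without that library the log2 changes of Ccn1 to Ccn5 were 1.75, 1.72, -2.74, 0.92 and 2.82, and each direction and call was as with all libraries. Of 16 markers of ovarian surface epithelium and mesothelium, 15 passed the low-count filter. All 16 summed to 4777 to 4826 CPM in Ad-Cre-GFP and 4758 to 4790 CPM in Ad-GFP libraries (without TMM scaling). Single markers among the 15 nevertheless moved both ways, 6 called higher and 9 called lower. Of all genes tested, 34.0% were called higher and 35.8% lower. The most abundant, Cdh1, fell to 970 ± 8.01 CPM in Ad-Cre-GFP, against 1313 ± 47.5 CPM in Ad-GFP libraries. Cdh2 rose by 1.93 and Msln rose by 1.10 on the log2 scale. Krt19 fell by 1.60, Gata4 fell by 1.37 and Wt1 fell by 1.15 on that scale.

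Ccn1, Ccn2, Ccn4 and Ccn5 rose in Ad-Cre-GFP cells and Ccn3 fell. Ccn5 rose most, 7.08-fold, Ccn1 and Ccn2 rose nearly in step, 3.35-fold and 3.27-fold, Ccn4 rose 1.89-fold, and Ccn3 was 7.01-fold lower. All 5 members passed the low-count filter and were tested together with all other genes by edgeR's quasi-likelihood test, with Benjamini-Hochberg adjustment over 14811 genes and calls at an adjusted p under 0.05. All 5 members were called, against 69.8% of all genes tested. Of the members, 4 were called higher, against 34.0% of all genes tested, and 1 was called lower, against 35.8%. The median log2 change was 1.71 over the members and -0.0065 over all genes. The groups did not overlap for any of the 5 members, nor for 73.0% of all genes tested. Calls were thus common among all genes in this comparison. In bulk RNA, fewer cells that express a gene and less RNA per cell cannot be told apart.

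**Figure D1:**
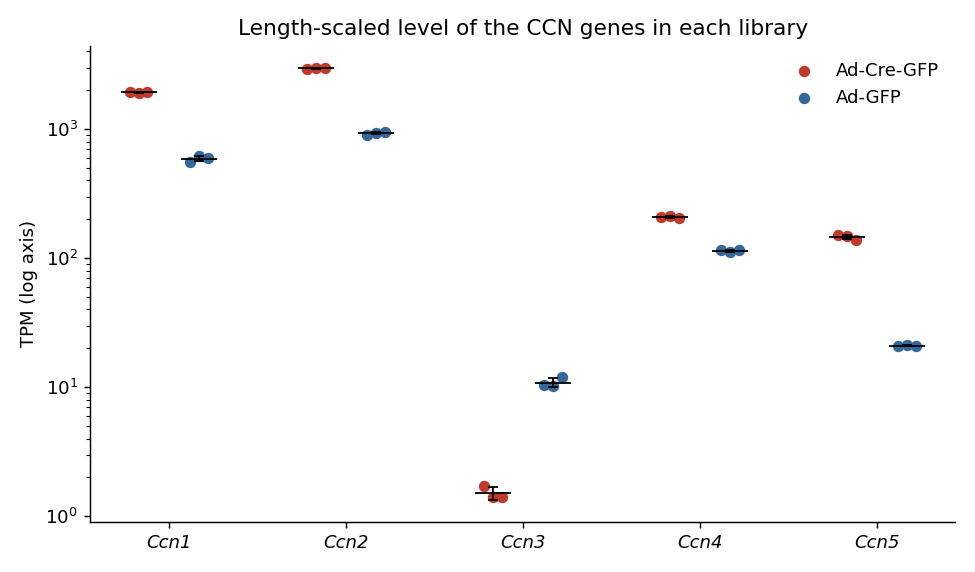
Level of each CCN gene in TPM (log axis) in the 3 Ad-Cre-GFP libraries (left of each pair) and the 3 Ad-GFP libraries (right); points are libraries, horizontal bars are means and vertical bars are SD. The Ad-Cre-GFP points lie above the Ad-GFP points for Ccn1, Ccn2, Ccn4 and Ccn5, and below them for Ccn3 (1.51 against 10.9 TPM).

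Ccn1 encodes an adhesive ligand of integrins that is made rapidly by wounded and growth factor treated cells. It had 1547, 1531 and 1545 CPM in Ad-Cre-GFP libraries, against 433, 484 and 465 CPM in Ad-GFP libraries. The Ad-Cre-GFP libraries lay close together, and the lowest of them was 3.16 times the highest control. The log2 change was 1.74 ± 0.04 (SE, adjusted p = 3.15e-20).

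Ccn2, connective tissue growth factor, promotes matrix production and is the CCN gene most used as a marker of fibrosis. It had 3312, 3390 and 3374 CPM in Ad-Cre-GFP libraries, against 992, 1049 and 1038 CPM in Ad-GFP libraries. The lowest Ad-Cre-GFP library was 3.16 times the highest control, as for Ccn1. The log2 change was 1.71 ± 0.03 (SE, adjusted p = 2.43e-21). The antisense gene Gm15270 shares 665 exonic bases with Ccn2, and without a stated strand setting reads of the pair cannot be told apart. Gm15270 was assigned 46 counts over the Ad-Cre-GFP libraries and 25 over the Ad-GFP libraries, against 290811 and 68223 for Ccn2. No other annotated transcript matched a CCN transcript over at least 200 bases at 90% identity or more.

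Ccn5, the member without the cystine knot, rose most of the 5. It had 114, 112 and 106 CPM in Ad-Cre-GFP libraries, against 15.3, 16.0 and 15.6 CPM in Ad-GFP libraries. The lowest Ad-Cre-GFP library was 6.62 times the highest control. The log2 change was 2.82 ± 0.05 (SE, adjusted p = 4.58e-22), and 157 genes were called with a larger rise.

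Ccn4, first described as a WNT1-induced gene, rose least. It had 462, 470 and 456 CPM in Ad-Cre-GFP libraries, against 245, 243 and 247 CPM in Ad-GFP libraries. The control libraries differed by little, with a coefficient of variation of 0.701%. The log2 change was 0.92 ± 0.03 (SE, adjusted p = 2.91e-17), below the 2-fold mark that the other 4 members passed. Among all genes tested, 6.25% were called higher by at least 2-fold and 7.56% lower by at least 2-fold.

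Ccn3, first found at a viral integration site in chicken nephroblastoma, was the member that fell and the least abundant. It had 57, 48 and 44 counts in Ad-Cre-GFP libraries, against 251, 295 and 249 counts in the shallower Ad-GFP libraries. In CPM these were 1.95, 1.60 and 1.60 in Ad-Cre-GFP libraries, against 11.4, 11.5 and 13.2 in Ad-GFP libraries. The lowest control was 5.87 times the highest Ad-Cre-GFP library. The log2 change was -2.80 ± 0.12 (SE, adjusted p = 5.22e-15), and 184 genes were called with a larger fall. Its SE was the largest of the 5, and its coefficient of variation was 11.5% in Ad-Cre-GFP and 8.18% in Ad-GFP libraries.

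By absolute log2 change, 2.26% of tested genes changed more than Ccn5, 2.34% more than Ccn3, 5.44% more than Ccn1, 5.55% more than Ccn2 and 15.8% more than Ccn4. The direction and call of each member were the same without each library in turn. Ccn6, the remaining gene of the mammalian family and not a member here, had 5, 9 and 7 counts in Ad-Cre-GFP and 4, 4 and 3 counts in Ad-GFP libraries. That was too few to pass the filter, and a difference was not detectable at this depth. Ccn6 also shares 482 exonic bases with Tube1 on the opposite strand.

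**Figure D2:**
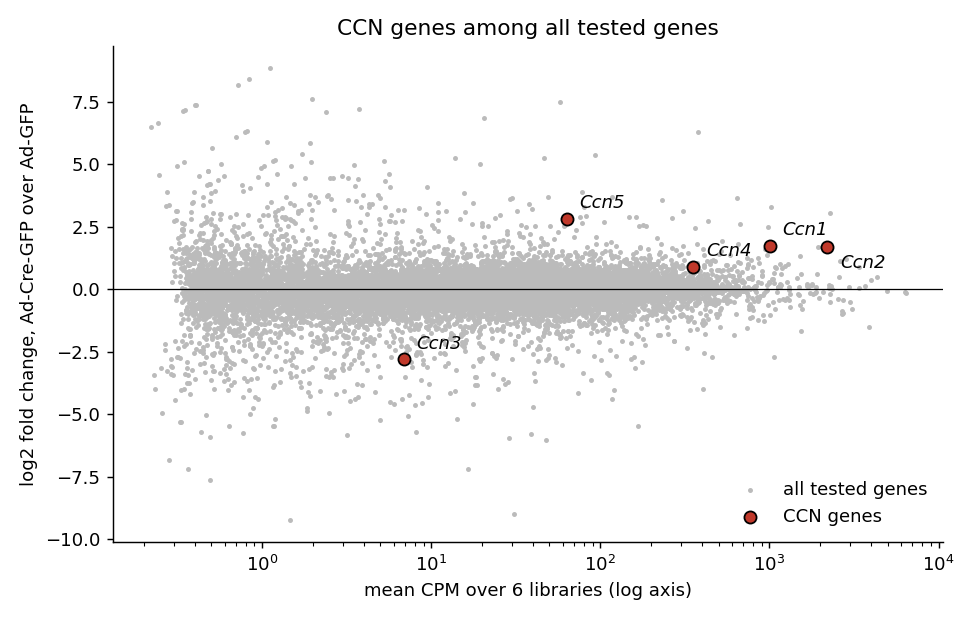
Log2 fold change of Ad-Cre-GFP over Ad-GFP against the mean CPM over 6 libraries (log axis) for 14811 tested genes (grey) and the 5 CCN genes (red). Ccn1 and Ccn2 lie at high mean CPM with changes of 1.74 and 1.71, Ccn5 stands at 2.82, Ccn4 at 0.92, and Ccn3 at -2.80 with the lowest mean CPM of the 5.

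Levels of different genes were compared per length, as TPM on merged exon lengths. In Ad-Cre-GFP libraries the order was Ccn2 (2964 ± 32.9 TPM), Ccn1 (1927 ± 11.2), Ccn4 (210 ± 3.77), Ccn5 (145 ± 5.88) and Ccn3 (1.51 ± 0.178; SD, n = 3). In Ad-GFP libraries the order was the same, with Ccn2 at 928 ± 20.1 TPM, Ccn1 at 590 ± 27.6, Ccn4 at 114 ± 1.71, Ccn5 at 21.0 ± 0.283 and Ccn3 at 10.9 ± 0.912 (SD, n = 3). No neighbours in either order overlapped. Among the 14811 tested genes, Ccn2 ranked 29 by TPM in Ad-Cre-GFP and 164 in Ad-GFP libraries, and Ccn1 ranked 67 in Ad-Cre-GFP and 272 in Ad-GFP libraries. Ccn4 ranked 774 in Ad-Cre-GFP and 1413 in Ad-GFP libraries, Ccn5 ranked 1135 in Ad-Cre-GFP and 5977 in Ad-GFP libraries, and Ccn3 ranked 12476 in Ad-Cre-GFP and 8306 in Ad-GFP libraries. Ccn1 and Ccn2 thus stood among the most abundant transcripts in either group, whereas Ccn5 lay within the top 7.66% of tested genes in Ad-Cre-GFP and the top 40.4% in Ad-GFP libraries.

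The 5 genes together held 5232, 5276 and 5237 TPM in Ad-Cre-GFP libraries, against 1611, 1695 and 1687 TPM in Ad-GFP libraries. The sum was 3.15-fold higher in Ad-Cre-GFP libraries, and Ccn1 and Ccn2 made up most of it in every library. Ccn2 took 56.0%, 56.8% and 56.6% of the sum in Ad-Cre-GFP libraries and 56.2%, 55.4% and 55.8% in Ad-GFP libraries, which overlap. Ccn1 took 37.1%, 36.3% and 36.8% in Ad-Cre-GFP libraries and 34.7%, 36.2% and 35.4% in Ad-GFP libraries, separate by a narrow margin. The minor members lay apart between the groups. Ccn4 averaged 3.997 ± 0.0585% of the sum in Ad-Cre-GFP and 6.85 ± 0.262% in Ad-GFP libraries, Ccn5 2.77 ± 0.111% in Ad-Cre-GFP and 1.26 ± 0.0228% in Ad-GFP libraries, and Ccn3 0.0288 ± 0.00348% in Ad-Cre-GFP and 0.653 ± 0.0504% in Ad-GFP libraries (SD, n = 3 each).

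An exact two-sided permutation test over the 6 libraries, which cannot give less than p = 0.1 with 3 against 3, gave 0.1 for the shares of Ccn1, Ccn3, Ccn4 and Ccn5 (0.15 adjusted over the 6 shares and ratios tested) and 0.2 for Ccn2 (0.24 adjusted). The ratio of Ccn1 to Ccn2 in TPM was 0.662, 0.640 and 0.649 in Ad-Cre-GFP libraries and 0.618, 0.653 and 0.635 in Ad-GFP libraries. The groups overlapped, with a mean difference of 0.033 on the log2 scale (exact permutation p = 0.3, also 0.3 adjusted), so any difference between the changes of these 2 genes was within the spread of libraries. The value was 0.021 without Ad-Cre-GFP replicate 1, 0.014 without Ad-GFP replicate 1 and 0.054 without Ad-GFP replicate 2. By contrast, Ccn4 was 1.44 ± 0.0424 times Ccn5 in Ad-Cre-GFP and 5.42 ± 0.149 times Ccn5 in Ad-GFP libraries (SD, n = 3 each).

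**Figure D3:**
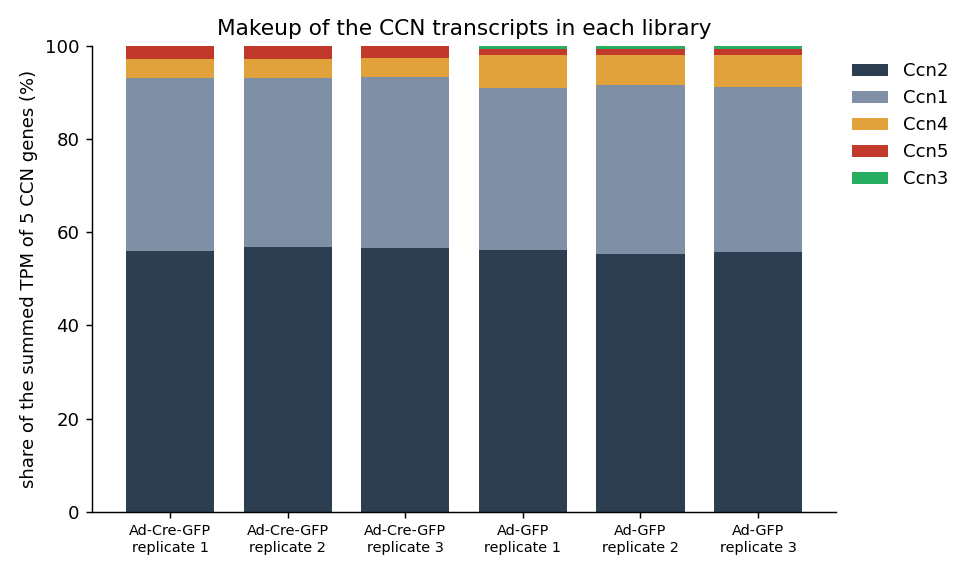
Share of each CCN gene (percent, stacked from 0 to 100) in the summed TPM of the 5 genes, for the 3 Ad-Cre-GFP libraries on the left and the 3 Ad-GFP libraries on the right. Ccn2 and Ccn1 fill most of every bar, Ccn5 widens and Ccn4 narrows in Ad-Cre-GFP, and Ccn3 (0.0288% there) is too thin to be seen outside Ad-GFP.

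The genes whose profiles were most like each member were sought among 9788 other named genes with a mean of at least 5 CPM, by the root mean square difference of log2 CPM centred on each gene's mean over the 6 libraries. Ccn2 was the closest of all to Ccn1, and Ccn1 the closest to Ccn2, at a difference of 0.032. After Ccn2, the nearest genes to Ccn1 were Ptprd, a receptor tyrosine phosphatase, Slc25a25, a mitochondrial carrier, Zfp365 and Tent5b, at 0.038 to 0.047. After Ccn1, those nearest to Ccn2 were Slc25a25, Zfp365, Tnfaip3, an inhibitor of NF-kappaB signalling, and Akr1c14, at 0.036 to 0.047. The other members were less like this pair. Of 9787 genes, 446 lay closer to Ccn1 than Ccn4 did, 924 closer than Ccn5 did and 9725 closer than Ccn3 did. Such counts depend on the side: 3872 genes lay closer to Ccn4 than Ccn1 did, and 109 closer to Ccn5 than Ccn1 did.

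Ccn4 had the nearest company, with Specc1, Ptpn14, Olfml2b, Gxylt2 and Ptprg at 0.017 to 0.020. Ptpn14 encodes a phosphatase that binds YAP, and it averaged 240 ± 1.51 CPM in Ad-Cre-GFP and 126 ± 2.14 CPM in Ad-GFP libraries (SD, n = 3 each). Ccn5 was nearest to Nrg1, a ligand of ERBB receptors, Serpinb9b, the aggrecan-cutting protease gene Adamts5, Slc24a3 and Prex2, at 0.050 to 0.077. Ccn3 was nearest to Acsbg1, the TNF receptor gene Tnfrsf1b, Serpini1, the collagen VI gene Col6a2 and Lmcd1, at 0.067 to 0.089. These are descriptions over 6 libraries in 2 groups, in which the difference between the groups makes up most of each profile.

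Beside the family, the genes that act on it or with it were read from lists. Among all genes tested, 34.0% were called higher and 35.8% lower, the background for each list count below. Of 9 tested genes of the YAP/TAZ-TEAD axis, 6 rose and 1 fell, with a median log2 change of 0.69. The list mixes coactivators, DNA-binding partners and vestigial-like cofactors of TEAD, so its count does not measure activity of the axis. The coactivator genes themselves were not called: Yap1 averaged 307 ± 4.13 CPM in Ad-Cre-GFP and 304 ± 2.41 CPM in Ad-GFP libraries (log2 change 0.011, adjusted p = 0.736), and Wwtr1, which encodes TAZ, averaged 320 ± 3.94 CPM in Ad-Cre-GFP and 329 ± 11.2 CPM in Ad-GFP libraries (-0.037, adjusted p = 0.295). Their DNA-binding partners did change. Tead4 rose to 45.5 ± 1.27 CPM in Ad-Cre-GFP, against 11.7 ± 0.694 CPM in Ad-GFP libraries, and Tead1 to 322 ± 4.46 CPM in Ad-Cre-GFP, against 182 ± 5.34 CPM in Ad-GFP libraries. Tead3 fell by 0.28 on the log2 scale (SE 0.065). The small rise of Tead2 (0.13 ± 0.049, adjusted p = 0.0234) missed the threshold when Ad-Cre-GFP replicate 1 (adjusted p = 0.101), Ad-GFP replicate 2 (0.0908) or Ad-GFP replicate 3 (0.0604) was left out, and with DESeq2 (0.0811). Vgll2, a TEAD cofactor gene of the vestigial-like family, rose to 9.69 ± 0.314 CPM in Ad-Cre-GFP, against 0.991 ± 0.0736 CPM in Ad-GFP libraries. Of the same family, Vgll3 rose by 0.85 and Vgll4, the median gene of the list, by 0.69 on the log2 scale.

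Other target genes of YAP and TAZ moved in both directions, as did all genes tested (34.0% called higher, 35.8% lower). Of 23 tested, 13 rose and 8 fell, with a median of 0.73. One of the falls was Lats2 (-0.39 ± 0.032), itself part of the labelled knockout. Ankrd1, a muscle ankyrin repeat protein gene, rose by 2.63 on the log2 scale and the angiomotin gene Amotl2 by 1.32, which places Ccn1 and Ccn2 between them. Ddah1, an enzyme of methylarginine breakdown, rose by 2.88, beside 2.82 for Ccn5. The largest falls were those of Nt5e, the ectonucleotidase CD73 (-2.33 ± 0.045), and Amotl1 (-0.99 ± 0.036).

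The SRF/MRTF and TGF-beta/SMAD genes, further known inputs to Ccn1 and Ccn2, showed no common direction: of 12 tested, 5 rose and 5 fell, with a median of -0.033. Mrtfa, an actin-regulated coactivator of SRF, rose by 0.74, and Tgfbr2 rose by 0.72. The ligand gene Tgfb3 fell by 1.25 and the type I receptor gene Tgfbr1 fell by 1.46 on the log2 scale. Of 5 tested WNT and estrogen inputs to Ccn4 and Ccn5, 4 fell and none rose, with a median of -0.51. The count does not measure WNT or estrogen activity, which was not tested. Among the falls were low genes, Tcf7 (1.02 CPM in Ad-Cre-GFP, 2.19 in Ad-GFP libraries) and Tcf7l1 (2.88 in Ad-Cre-GFP, 5.64 in Ad-GFP libraries). Tcf7l2, a WNT-responsive transcription factor gene, averaged 17.9 ± 0.330 CPM in Ad-Cre-GFP and 25.5 ± 0.524 CPM in Ad-GFP libraries. The estrogen receptor gene Esr1 averaged 4.92 ± 0.0612 CPM in Ad-Cre-GFP and 6.38 ± 0.598 CPM in Ad-GFP libraries (adjusted p = 0.00396), and Wnt1 itself was too low to test.

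Genes for receptors of CCN proteins mostly fell. Of 19 tested, 12 fell and 5 rose, with a median log2 change of -0.41, against -0.0065 over all genes. Itga6, the laminin-binding alpha 6 integrin through which CCN1 and CCN2 also act, fell to 25.7 ± 0.600 CPM in Ad-Cre-GFP, against 88.4 ± 11.3 CPM in Ad-GFP libraries. Itgb5 fell to 209 ± 0.998 CPM in Ad-Cre-GFP, against 443 ± 13.6 CPM in Ad-GFP libraries, and its partner Itgav to 298 ± 6.93 CPM in Ad-Cre-GFP, against 387 ± 23.7 CPM in Ad-GFP libraries. Lrp1, a scavenger receptor that takes up CCN2, fell by 1.23 and the heparan sulfate proteoglycan gene Sdc4 by 0.37 on the log2 scale. Itgb1, the shared beta 1 integrin, rose by 0.11 ± 0.028 (adjusted p = 0.00184). The largest receptor rise at 5 CPM or more was that of Fgfr2, a fibroblast growth factor receptor, to 10.6 ± 0.285 CPM in Ad-Cre-GFP, against 1.63 ± 0.358 CPM in Ad-GFP libraries. Sdc2 rose by 0.14. The rise of Notch1 (0.52 ± 0.173, adjusted p = 0.0113) missed the threshold with DESeq2 (adjusted p = 0.0648). It also missed it without Ad-Cre-GFP replicate 1 (0.0527) or Ad-GFP replicate 1 (0.0840). Below a mean of 5 CPM, Itgb3 had the largest receptor fall, to 0.183 ± 0.073 CPM in Ad-Cre-GFP, against 3.64 ± 0.327 CPM in Ad-GFP libraries.

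Growth factors and matrix proteins that CCN2 binds went both ways, with 8 rises and 4 falls among 13 tested and a median of 0.45. Bmp4 rose by 1.51 and Pdgfb by 1.37, and Fn1, fibronectin, fell to 2030 ± 55.1 CPM in Ad-Cre-GFP, against 5718 ± 105 CPM in Ad-GFP libraries. The proteoglycan gene Dcn fell by 1.91 on the log2 scale. Of 7 tested proteases that cut CCN proteins, 3 rose and 4 fell, with a median of -0.52. Mmp14, a membrane-bound metalloprotease, rose by 0.59, and the secreted metalloprotease gene Mmp3 fell by 4.51 and Mmp13 fell by 1.98 on the log2 scale. The call of Htra1 (0.066 ± 0.029, adjusted p = 0.046) missed the threshold when Ad-Cre-GFP replicate 1 (adjusted p = 0.0993), Ad-Cre-GFP replicate 2 (0.124) or Ad-GFP replicate 1 (0.196) was left out, and with upper-quartile scaling (0.105).

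Relatives by protein module or by function moved in both directions, as did all genes tested (34.0% called higher, 35.8% lower). Of 9 other tested genes with an IGFBP module, 5 rose and 2 fell, with a median of 0.066. Igfbp2 rose to 4090 ± 96.8 CPM in Ad-Cre-GFP, against 495 ± 37.1 CPM in Ad-GFP libraries, and Igfbp7 rose by 2.01. Igfbp3, another binding protein of insulin-like growth factors, fell by 0.23 on the log2 scale. Without Ad-GFP replicate 1 only 3 of this list rose. Of 9 other tested matricellular genes, 3 rose and 6 fell, with a median of -0.50. Thbs1, thrombospondin 1, rose to 1847 ± 49.6 CPM in Ad-Cre-GFP, against 189 ± 11.8 CPM in Ad-GFP libraries, and Fbln5, an elastic fibre protein gene, rose by 3.13. Spp1, osteopontin, fell to 10.7 ± 0.530 CPM in Ad-Cre-GFP, against 224 ± 22.4 CPM in Ad-GFP libraries, and Lgals3 fell by 0.56 on the log2 scale.

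**Figure D4:**
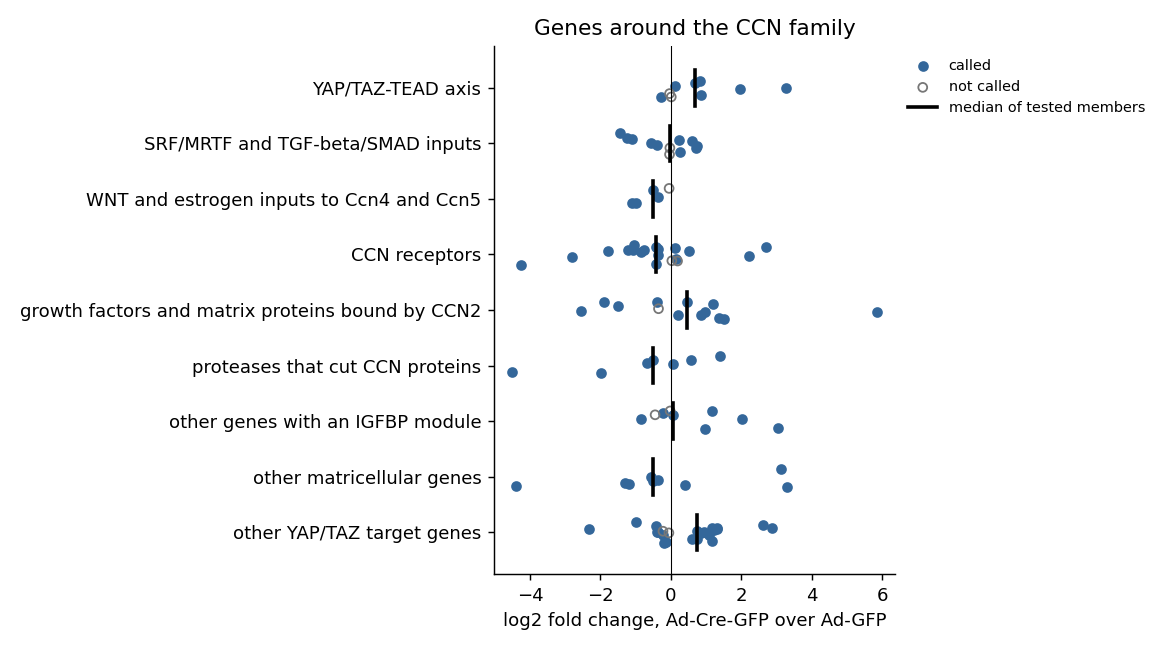
Log2 fold change of Ad-Cre-GFP over Ad-GFP for each tested gene of 9 lists around the CCN family (filled, called; open, not called; vertical scatter is for legibility; black bar, median). The receptor list has its median at -0.41 and most points left of 0, the YAP/TAZ-TEAD axis and the other YAP/TAZ targets have medians of 0.69 and 0.73, and all 5 tested WNT and estrogen inputs lie left of 0.

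CCN genes are also expressed by fibroblasts, smooth muscle and endothelium, and markers of these and other cells of the ovary moved between the groups. Among all genes tested, 34.0% were called higher and 35.8% lower, the background for each marker count below. Stromal fibroblast markers summed to 972 to 1031 CPM in Ad-Cre-GFP and 2709 to 2868 CPM in Ad-GFP libraries. Of 8, 5 were tested and 5 fell, most of the sum was Col3a1, and Lum and Tcf21 had no counts. Among the falls, that of Col1a1 was 0.16 on the log2 scale, and Pdgfra and Dpt averaged at most 0.812 CPM in either group. Pericyte and smooth muscle markers summed to 1413 to 1455 CPM in Ad-Cre-GFP and 413 to 516 CPM in Ad-GFP libraries. Of 8, 3 were tested and 3 rose. Acta2 made up 98.3% of that sum, and Myh11, Rgs5, Cspg4, Pdgfrb and Des had at most 0.196 CPM on average in either group. Endothelial markers summed to 21.9 to 23.2 CPM in Ad-Cre-GFP and 8.45 to 9.97 CPM in Ad-GFP libraries. Of 8, 3 were tested and 3 rose, and Tie1 and Emcn had no counts. Ptprb made up 56.9% of that sum. Pecam1 averaged 0.116 CPM in Ad-Cre-GFP and 0.200 CPM in Ad-GFP libraries, and Pecam1, Cdh5 and Tek were too low to test. Granulosa markers summed to 320 to 332 CPM in Ad-Cre-GFP and 135 to 147 CPM in Ad-GFP libraries. Of 7, 4 were tested, 3 rose and 1 fell. Inhbb made up 98.4% of that sum, and Fshr and Cyp19a1 had no counts. Theca and steroidogenic markers summed to 94.4 to 96.5 CPM in Ad-Cre-GFP and 132 CPM in each of the Ad-GFP libraries. Of 6, 2 were tested and 2 fell, Nr5a1 made up 86.2% of the sum, and Hsd3b1 and Lhcgr had no counts. Immune markers summed to 6.53 to 7.14 CPM in Ad-Cre-GFP and 11.1 to 13.4 CPM in Ad-GFP libraries. Of 7, 2 were tested and 1, Cd14, fell by 1.23 on the log2 scale, and Adgre1 had no counts. The sums of the fibroblast, theca and immune lists had the direction of Ccn3. Those of the smooth muscle, endothelial and granulosa lists had the direction of the other 4 members. A single gene made up most of each sum. Whether these cell types were present, and any part of theirs in the CCN values, was not tested.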

How the data were processed

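The deposited table holds raw counts, whole numbers per gene and library, and per the file headers each column carries the name of a BAM alignment file. GRCm38, kallisto 0.46.2 and sleuth 0.30.1 appear in the submitters' processing notes. Which tools aligned and counted the reads, with what strand setting and treatment of multiple matches, is not given in the sources used here. Groups and replicate numbers were taken from the sample titles. Of 48440 gene IDs, 48058 matched GENCODE M21 (GRCm38) after removing versions, and the unmatched 382 held 0.0381% of counts.

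Genes were filtered with filterByExpr, TMM-scaled and fitted without a replicate block by the robust quasi-likelihood test of edgeR 4.0.16 in R 4.3.3. Standard errors (SE) are the log2 change divided by the square root of F. TPM were computed from counts and merged exon lengths. Exact permutation tests used scipy 1.17.1, and transcript copies were sought with minimap2 2.31. Profiles used log2 CPM with a prior count of 2. Replicate pairs had a chi-square per gene of 2.04 to 4.27, above the sampling noise of 1, and none was dropped. Whether replicates were separate cultures is not in the labels, and p-values thus cover only how far these libraries differ, possibly for technical reasons. Total counts of 18690235 to 30304033 per library set the precision: 3 counts, the upper limit that a count of 0 allows, equal 0.0990 to 0.161 CPM, for counting error only.

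The members and gene lists were chosen with earlier results of these data known, and some genes stand in more than 1 list. Named genes are the members, Lats1 and Lats2, up to 2 called rises and 2 called falls per list with a mean of at least 5 CPM, a set of Hippo, integrin and YAP target genes, and the 5 nearest profiles of each member. Gm15270, the lost calls of Htra1 and Notch1, Itgb3, Vgll3, Vgll4, Tcf7, Tcf7l1, Ccn6, Wnt1 and the markers named were chosen after their values were known. The alternatives tried were other scalings, other low-count filters, DESeq2 1.42.0, limma-voom (limma 3.58.1), a replicate block, other lengths and leaving out each library.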

Additional observations from a re-analysis of the deposited data

How the results depend on the processing

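Each member kept its direction and call under all 13 alternatives of the gene test. The log2 changes ranged from 1.70 to 1.78 for Ccn1, 1.68 to 1.73 for Ccn2, -2.89 to -2.74 for Ccn3, 0.90 to 0.94 for Ccn4 and 2.80 to 2.87 for Ccn5, with a largest adjusted p of 4.26e-13 (Ccn3, limma-voom). With a replicate block 10478 genes were called, against 10344 without it, and the block changed the call of no member. The numbers were not taken to pair the libraries: the deviations of same-numbered libraries correlated at 0.123, 0.0769 and 0.0543, although each of the 6 libraries correlated best with its own number. Leaving out 1 library at a time gave 3 to 5 rises among the IGFBP module genes, against 5 with all libraries. Other scalings moved the median of all genes by less than 0.1 on the log2 scale.

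Levels depended on the length and the scaling, while the order of the members was the same. With the longest coding transcript as length, Ccn1 to Ccn5 averaged 1549, 2738, 1.22, 184 and 131 TPM in Ad-Cre-GFP libraries and 475, 858, 8.74, 100.04 and 18.9 TPM in Ad-GFP libraries. As RPKM on TMM-scaled library sizes they averaged 763, 1174, 0.599, 83.1 and 57.6 in Ad-Cre-GFP libraries and 228, 359, 4.20, 44.0 and 8.13 in Ad-GFP libraries. The lower values follow from the construction of each unit. Depth limits Ccn3 and Ccn6 most.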
